A study of Homo sapiens with 14 samples.

Results

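The genes described here are 44 that repair DNA breaks and crosslinks, or signal their presence, in UM1 cells. UM1 is a human cell line grown from a squamous carcinoma of the tongue. The genes were taken by name, and each of the 44 is a row of both deposited expression tables, of 16237 genes in the knockdown experiment and 16137 in the overexpression experiment. By role they comprise 5 genes of the BRCA1 and BRCA2 group, 6 end resection genes, 9 strand pairing genes, 9 Fanconi genes, 8 damage kinases and checkpoint mediators, 4 end joining genes and 3 genes of the TIP60 acetyltransferase complex. The series asks how PRMT5, an arginine methyltransferase that makes symmetric dimethylarginine, affects gene regulation by ΔNp63α, the p63 isoform of basal squamous epithelium. The libraries used are 2 of cells with a short hairpin against PRMT5 (shPRMT5) set against 2 with a hairpin against GFP (shGFP), and 3 of cells overexpressing ΔNp63α set against 3 with the empty vector. All come from the same line, and the titles call the replicates biological without saying whether each was a culture of its own or whether any line is a clone. Each p-value therefore rests on the spread between these libraries, whatever its source. In the tests of single genes, a gene's own spread is combined with that of other genes at a similar mean level. CUT&Tag samples of the series (4) are not analysed here.

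Homologous recombination copies a broken stretch of DNA from the sister chromatid in S and G2 phase. The MRE11-RAD50-NBN complex and its partners resect the ends, BRCA1, PALB2 and BRCA2 prepare the resected strand for the search, and the strand pairing genes help it to invade the sister duplex. The Fanconi genes detect crosslinks between strands and hand them to the same machinery, and inherited loss of this pathway predisposes to squamous carcinoma of the head and neck. Non-homologous end joining rejoins ends directly through the Ku proteins (XRCC6 and XRCC5) and the kinase DNA-PKcs (PRKDC). PRMT5 is known to methylate RUVBL1, a cofactor of the acetyltransferase TIP60 (KAT5), and to influence the splicing of KAT5. Both effects concern the protein or the splice form, and what was measured here is the amount of mRNA per gene.

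Values are TPM, an abundance of transcripts that is corrected for gene length and sums to the same total in every library. A gene was tested where its mean TPM over a table's libraries was at least 1, and is called higher or lower where limma's adjusted p was under 0.05 over all genes tested in that table. Log2 folds are on the log2(TPM + 1) scale, and ratios are of mean TPM. The targeted gene PRMT5 (ENSG00000100462) held 29.3 and 33.6 TPM under shPRMT5, against 143 and 126 TPM under shGFP (log2 fold -2.06, SE 0.18, limma adjusted p = 9.74e-09). The ΔNp63α libraries held 152, 160.4 and 168 TPM of TP63 (ENSG00000073282), against 138, 82.3 and 97.3 TPM in the vector libraries (log2 fold 0.62, SE 0.18, limma adjusted p = 0.03). PRMT5 itself was called higher under ΔNp63α, at 131, 97.0 and 118 TPM, against 95.4, 61.1 and 68.6 TPM with vector (log2 fold 0.63, SE 0.19, limma adjusted p = 0.0325), while TP63 was not called under shPRMT5 (log2 fold 0.02). Both calls under ΔNp63α were lost without ΔNp63α replicate 1 or 3 or vector replicate 2 or 3, and that of TP63 also without ΔNp63α replicate 2, with log2 folds from 0.46 to 0.83 for TP63 and from 0.50 to 0.81 for PRMT5. The PRMT5 call under shPRMT5 was kept without any 1 library. Absolute depth is unknown. By the commonest ratio of low values, the length-scaled depth of the shPRMT5 libraries and of shGFP replicate 2 lay between 0.712 and 0.742 of that of shGFP replicate 1, and the overexpression libraries lay between 1 and 1.08 of vector replicate 1. All 6 epithelial markers looked at (KRT5, KRT14, KRT6A, EPCAM, CDH1 and TP63) were tested in both tables. The basal keratin KRT14 held at least 2501 TPM in every library. The markers did not move together. Under ΔNp63α KRT14, KRT5 and TP63 were called higher (log2 folds 1.94, 1.45 and 0.62) and CDH1 lower (-0.68). Under shPRMT5 KRT5 and EPCAM were called higher (0.90 and 0.81), and the others were not called. The leukocyte markers (PTPRC, CD3E, CD68), and COL1A2 and DCN of the fibroblast markers, are not listed in either table, which holds only genes above 0 in each of its libraries. Another fibroblast marker, LUM, was called higher under ΔNp63α, at 23.9, 46.4 and 41.2 TPM, against 11.4, 24.0 and 20.5 TPM with vector. Its groups overlapped, and the call was lost without ΔNp63α replicate 2 or 3 or vector replicate 1 or 3. Of the fibroblast markers, 3 were listed and 2 tested in each table, with 1 called under ΔNp63α and 0 under shPRMT5. COL1A1 stood at 7.17 and 8.81 TPM under shPRMT5, against 7.79 and 4.69 TPM under shGFP, and PDGFRB was not tested there. Of the endothelial markers (PECAM1, VWF), 0 were tested in the knockdown table and 1 in the overexpression table, where it was not called. Bulk values cannot tell fewer cells of a kind from less RNA per cell.

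The start sites of several of these genes are shown first, those of the 8 matched genes called higher under the PRMT5 hairpin and of RAD51C, called higher under ΔNp63α, so that they can be read for CCAAT boxes, a common element of cell cycle promoters. Sequences are those of RefSeq on GRCh38.p14, the 250 bases before the start that lies farthest upstream, written 5′ to 3′ on the gene's strand. Capitals mark CCAAT, or ATTGG where the box lies on the other strand. RAD54L, CHEK1, CLSPN, TP53BP1 and XRCC6 hold at least 1 box, and EXO1, FANCD2, TOPBP1 and RAD51C hold none.
RAD54L, chr1:46247438-46247687, plus strand: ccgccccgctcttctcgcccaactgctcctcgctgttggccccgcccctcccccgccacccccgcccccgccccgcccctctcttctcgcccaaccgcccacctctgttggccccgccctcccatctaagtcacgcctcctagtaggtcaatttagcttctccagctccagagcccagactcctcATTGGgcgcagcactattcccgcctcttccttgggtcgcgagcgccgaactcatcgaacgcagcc
CHEK1, chr11:125625974-125626223, plus strand: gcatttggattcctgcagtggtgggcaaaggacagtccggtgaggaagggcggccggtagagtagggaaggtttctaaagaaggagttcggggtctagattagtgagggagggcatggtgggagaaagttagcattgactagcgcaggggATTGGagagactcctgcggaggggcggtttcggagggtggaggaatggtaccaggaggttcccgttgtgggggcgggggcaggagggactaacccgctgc
CLSPN, chr1:35769979-35770228, minus strand: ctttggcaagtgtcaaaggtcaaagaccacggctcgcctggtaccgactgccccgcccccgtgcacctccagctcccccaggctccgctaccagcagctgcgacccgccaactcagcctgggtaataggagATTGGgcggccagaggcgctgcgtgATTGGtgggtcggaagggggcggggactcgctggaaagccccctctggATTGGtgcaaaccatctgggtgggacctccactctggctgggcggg
TP53BP1, chr15:43510641-43510890, minus strand: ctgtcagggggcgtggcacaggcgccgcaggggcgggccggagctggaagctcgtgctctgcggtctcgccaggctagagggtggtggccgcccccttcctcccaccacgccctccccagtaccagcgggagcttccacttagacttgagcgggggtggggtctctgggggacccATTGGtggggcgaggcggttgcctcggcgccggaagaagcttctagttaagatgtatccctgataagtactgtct
XRCC6, chr22:41621045-41621294, plus strand: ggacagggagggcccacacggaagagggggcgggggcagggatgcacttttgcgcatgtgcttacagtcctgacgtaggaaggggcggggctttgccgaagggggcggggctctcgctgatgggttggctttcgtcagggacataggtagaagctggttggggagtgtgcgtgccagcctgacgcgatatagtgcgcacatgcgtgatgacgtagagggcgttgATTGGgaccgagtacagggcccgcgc
EXO1, chr1:241847954-241848203, plus strand: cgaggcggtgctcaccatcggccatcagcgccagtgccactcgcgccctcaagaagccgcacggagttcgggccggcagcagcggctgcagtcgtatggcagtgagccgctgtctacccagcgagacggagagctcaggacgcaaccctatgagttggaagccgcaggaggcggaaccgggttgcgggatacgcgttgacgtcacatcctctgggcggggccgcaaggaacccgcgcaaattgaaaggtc
FANCD2, chr3:10026187-10026436, plus strand: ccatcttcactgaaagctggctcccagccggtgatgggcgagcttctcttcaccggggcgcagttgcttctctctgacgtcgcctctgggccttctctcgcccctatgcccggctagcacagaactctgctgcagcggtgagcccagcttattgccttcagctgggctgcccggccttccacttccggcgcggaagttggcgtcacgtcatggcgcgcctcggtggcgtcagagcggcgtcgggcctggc
TOPBP1, chr3:133661942-133662191, minus strand: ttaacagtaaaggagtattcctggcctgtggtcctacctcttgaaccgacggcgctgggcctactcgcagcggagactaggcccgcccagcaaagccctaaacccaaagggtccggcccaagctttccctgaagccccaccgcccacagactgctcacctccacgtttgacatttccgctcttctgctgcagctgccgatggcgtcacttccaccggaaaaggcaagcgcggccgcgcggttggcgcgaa
RAD51C, chr17:58692323-58692572, plus strand: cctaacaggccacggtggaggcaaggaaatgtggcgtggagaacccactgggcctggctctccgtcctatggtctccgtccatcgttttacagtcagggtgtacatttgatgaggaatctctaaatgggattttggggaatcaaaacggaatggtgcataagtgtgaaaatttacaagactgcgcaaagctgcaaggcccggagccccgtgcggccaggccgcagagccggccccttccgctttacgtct

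RefSeq windows were matched for 39 of the 44 genes. A CCAAT box on either strand stood in a window of 20 of these 39 genes (51.3%), and in 5 of the 8 matched genes that were called higher under shPRMT5 (62.5%). It stood in 11 of the 25 matched members that were tested and not called (44%), and in 37% of the 27305 genes with a window. The share among the members that were not called was thus also above that of all genes, and the difference between the 8 and the 25 was not tested. A strict E2F motif, written as TTTCCCGC, TTTCGCGC, TTTGCCGC or TTTGGCGC on either strand, stood in FANCA and FANCC (2 of 39) and in 3.40% of all genes with a window. None of the 8 held it. The p53 family half-site, the element that p63 also reads, stood in BLM (1 of 39) and in 6.80% of all genes with a window. No motif contains another, genes with several starts had several windows to match, and a match is a description of these letters and not a binding site.

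The genes differed widely in level. Ku70 (XRCC6) was the most abundant in every library, at 919 and 990.2 TPM under shPRMT5, against 683 and 776 TPM under shGFP. With ΔNp63α its libraries held 842, 786 and 801 TPM, against 799, 688 and 661 TPM with vector. Ku80 (XRCC5) and the AAA ATPases RUVBL2 and RUVBL1 came next in mean level in both experiments. Mean TPM exceeded 100 for 4 of the 44 genes in the knockdown experiment and for 3 in the overexpression experiment, and lay under 10 for 27 and 26. At the low end of the knockdown table, 6 genes did not reach the mean of 1 and were not tested there: BRCA2, BRIP1 (a helicase that binds BRCA1), RAD50, FANCM (a Fanconi translocase), the kinase ATM and the ligase LIG4, all between 0.170 and 0.941 TPM. Of the same genes only RAD50 missed the filter in the overexpression table, where its libraries held 0.333 to 1.47 TPM. The tables were normalized separately and are not on 1 scale.

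**Figure D1:**
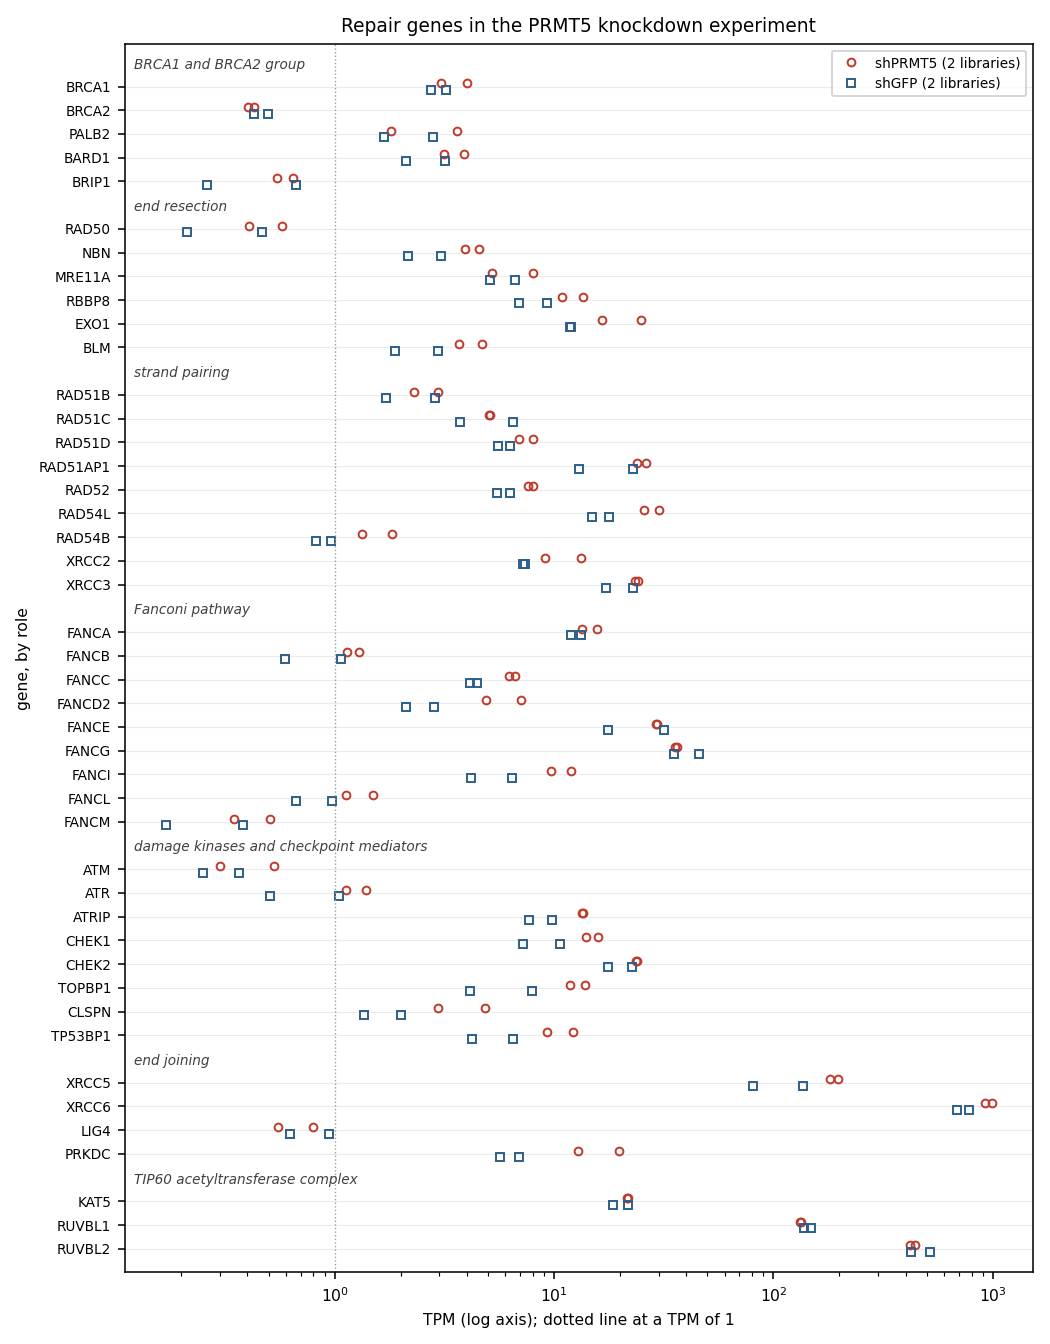
TPM (log axis) of the 44 repair genes in the 2 shPRMT5 libraries (red circles) and the 2 shGFP libraries (blue squares), grouped by role, with a dotted line at a TPM of 1. The shPRMT5 libraries lie above both shGFP libraries for each tested checkpoint and end joining gene, as they do for 49.0% of all genes tested. The 6 genes left of the line in their mean were not tested.

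Under the PRMT5 hairpin, 11 of the 38 tested repair genes were called higher and 0 lower. The 11 are the Ku subunits XRCC5 and XRCC6, DNA-PKcs (PRKDC), the Fanconi pair FANCD2 and FANCI, the checkpoint genes TOPBP1, TP53BP1, CLSPN and CHEK1, the nuclease EXO1 and the translocase RAD54L, with ratios of mean TPM between 1.31 and 2.58. The share called higher was 28.9%, beside 15.1% higher and 3.48% lower over the 12635 genes tested. The median log2 fold of the 38 was 0.37, beside 0.25 over all genes tested, so the table as a whole lay above 0. After median-of-ratios rescaling, which moves the median of all genes to 0.01, the median of the 38 was 0.22 and PRKDC alone was called higher, with 0 lower, beside 3.80% higher and 7.01% lower over all genes. No member had an unadjusted limma p under 0.05 with a negative log2 fold before rescaling (0 of 38), beside 799 of the 12635 genes tested. In either direction 16 of the 38 had such a p, beside 4311 of the 12635. Without shPRMT5 replicate 2, 0 of 35 tested members were called higher, and 170 of all genes (1.36%). Without shGFP replicate 1, 6 of 38 members were called higher (15.8%), and 1996 of 12700 genes (15.7%), so in that fit the share among the members was close to that of the table. Of the 38, 27 had both shPRMT5 libraries above both shGFP libraries and 1 had both below, beside 49.0% above and 14.0% below over all genes tested. Within the shPRMT5 group, replicate 2 was the higher library for 31 of the 38 genes, and for 67.6% of all genes tested. Within the shGFP group, replicate 1 was the lower for 23 of 38, and for 48.0% of all genes tested.

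All 3 tested end joining genes were called, among them the member with the largest log2 fold, beside 15.1% higher over all genes tested. After rescaling 1 of the 3 was called. PRKDC (ENSG00000253729) stood at 12.8 and 19.8 TPM in the shPRMT5 libraries, against 6.96 and 5.66 TPM in the shGFP libraries, that is, higher by 1.22 on the log2 scale (SE 0.25, limma adjusted p = 0.00200). The groups did not overlap, and the call was kept after rescaling (log2 fold 0.97, limma adjusted p = 0.0107). XRCC5 (ENSG00000079246), the Ku80 subunit, stood at 182 and 197 TPM under shPRMT5, against 81.1 and 137 TPM under shGFP (log2 fold 0.84, SE 0.19, limma adjusted p = 0.00344). Its shGFP libraries lay far apart: leaving out replicate 1 of that group gave a log2 fold of 0.46 and leaving out replicate 2 gave 1.21. XRCC6 (ENSG00000196419), the Ku70 subunit, had the smallest called change, higher by 0.39 on the log2 scale (SE 0.13, limma adjusted p = 0.0402) and by 0.12 after rescaling, the smallest of the 11 on that scale too. Reads of XRCC6 can be shared with its pseudogenes, of which XRCC6P2 is listed in the knockdown table. The 3 genes bind broken ends as 1 complex. Each lay higher in both shPRMT5 libraries than in both shGFP libraries, as did 49.0% of all genes tested. LIG4, the ligase that closes the joint, was under the filter at 0.801 and 0.554 TPM under shPRMT5, against 0.627 and 0.941 TPM under shGFP.

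Checkpoint mediators were the second group with several calls, 4 of 7 tested, beside 15.1% higher over all genes tested. After rescaling 0 of the 7 were called. TOPBP1 (ENSG00000163781), which activates the kinase ATR at stalled forks, stood at 11.8 and 13.8 TPM under shPRMT5, against 4.13 and 7.92 TPM under shGFP (log2 fold 1.03, SE 0.27, limma adjusted p = 0.0102). TP53BP1 (ENSG00000067369), which shields ends from resection, stood at 9.27 and 12.2 TPM under shPRMT5, against 4.22 and 6.52 TPM under shGFP (log2 fold 0.90, SE 0.26). In both, shGFP replicate 1 was the lowest library. CLSPN (ENSG00000092853), the adaptor through which ATR reaches CHEK1, stood at 2.97 and 4.83 TPM under shPRMT5, against 2.01 and 1.36 TPM under shGFP, and CHEK1 itself (ENSG00000149554) at 14.0 and 15.9 TPM, against 7.22 and 10.6 TPM. Both passed narrowly (limma adjusted p = 0.0430 for each). The kinase that acts above them, ATR, had a log2 fold of 0.36 at 1.13 and 1.39 TPM under shPRMT5, against 0.508 and 1.05 TPM under shGFP, and was not called. Its partner ATRIP was closest to a call among the genes that missed, at 13.4 and 13.5 TPM under shPRMT5, against 9.84 and 7.71 TPM under shGFP (log2 fold 0.57, SE 0.24, limma adjusted p = 0.0903). ATRIP lies in the same locus as TREX1, so reads of TREX1 may be counted with it. CHEK2, the kinase downstream of ATM, was not called (log2 fold 0.24), and ATM was not tested.

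Of the Fanconi genes, 2 of 8 tested were called, and 0 of 8 after rescaling, beside 15.1% and 3.80% higher over all genes tested. FANCD2 and FANCI form the clamp that is ubiquitinated at a crosslink, and they were the 2. FANCD2 (ENSG00000144554) stood at 4.90 and 7.07 TPM under shPRMT5, against 2.11 and 2.83 TPM under shGFP (log2 fold 1.00, SE 0.28, limma adjusted p = 0.0159). FANCI (ENSG00000140525) stood at 9.69 and 11.9 TPM under shPRMT5, against 4.18 and 6.40 TPM under shGFP (log2 fold 0.92, SE 0.26, limma adjusted p = 0.0165). The groups overlapped for neither gene, and reads of FANCD2 can be shared with its pseudogenes. The core complex genes that place the ubiquitin were not called. FANCA, FANCB, FANCC, FANCE, FANCG and the ligase FANCL had log2 folds between -0.16 and 0.49. FANCE alone among them was called without 1 library (log2 fold 0.71 without shGFP replicate 1, whose 31.7 TPM lay apart from the 17.6 TPM of shGFP replicate 2).

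Among resection genes, EXO1 (ENSG00000174371), the exonuclease of long-range resection, stood at 16.5 and 25.0 TPM under shPRMT5, against 11.8 and 12.0 TPM under shGFP (log2 fold 0.73, SE 0.23, limma adjusted p = 0.0317). The other 4 tested had log2 folds between 0.13 and 0.62 and were not called. They include BLM, the Bloom helicase, at 3.70 and 4.72 TPM under shPRMT5, against 1.88 and 2.96 TPM under shGFP (limma adjusted p = 0.126). RBBP8, which starts resection with MRE11, stood at 10.9 and 13.6 TPM under shPRMT5, against 6.94 and 9.33 TPM under shGFP (limma adjusted p = 0.121). The groups did not overlap for either, and neither passed the test. Both shPRMT5 libraries lay above both shGFP libraries for 49.0% of all genes tested. MRE11A, the nuclease, had a log2 fold of 0.13, with overlapping groups.

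RAD54L (ENSG00000085999), a motor protein that moves along DNA, was the only call among the 9 strand pairing genes (1 higher, 0 lower, 3 at an unadjusted limma p under 0.05). It stood at 25.6 and 30.1 TPM under shPRMT5, against 17.8 and 14.9 TPM under shGFP (log2 fold 0.73, SE 0.22, limma adjusted p = 0.0200), with a log2 fold of 0.47 after rescaling (limma adjusted p = 0.136). RAD51AP1, which stimulates strand pairing, stood at 23.9 and 26.2 TPM under shPRMT5, against 13.1 and 22.9 TPM under shGFP (limma adjusted p = 0.128). The log2 folds of the 8 genes not called ran from 0.03 for RAD51C to 0.54 for XRCC2. The BRCA1 and BRCA2 group gave no call: BRCA1 had a log2 fold of 0.18 (SE 0.28), PALB2 0.17 (SE 0.31) and BARD1, the partner of BRCA1, 0.32 (SE 0.29), with overlapping groups for all 3 and 0 of 3 at an unadjusted limma p under 0.05. BRCA2 was under the filter, at 0.402 and 0.428 TPM under shPRMT5, against 0.430 and 0.498 TPM under shGFP.

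None of the 3 TIP60 genes was called (0 of 3 at an unadjusted limma p under 0.05). KAT5 was at 21.6 TPM in both shPRMT5 libraries, against 21.7 and 18.6 TPM in the shGFP libraries (log2 fold 0.10, SE 0.21, limma adjusted p = 0.771). RUVBL1 stood at 132 and 133 TPM under shPRMT5, against 148 and 138 TPM under shGFP (log2 fold -0.11, SE 0.16), and RUVBL2 at 441 and 417 TPM, against 515 and 426 TPM (log2 fold -0.13, SE 0.14). Together with FANCG (log2 fold -0.16) the 2 RUVBL genes were the only tested members with negative log2 folds. This group of 3 numbered 12 after rescaling, beside 3548 of the 12635 genes tested before rescaling and 6188 after it. On the rescaled values the log2 folds were -0.38 for RUVBL1, -0.40 for RUVBL2 and -0.16 for KAT5. Of the 3 genes, 2 had a negative log2 fold at an unadjusted limma p under 0.05, beside 1875 of the 12635 genes tested. None of the 3 was called (limma adjusted p = 0.160 for RUVBL1 and 0.141 for RUVBL2). Gene totals say nothing of splice forms, which these tables do not separate.

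**Figure D2:**
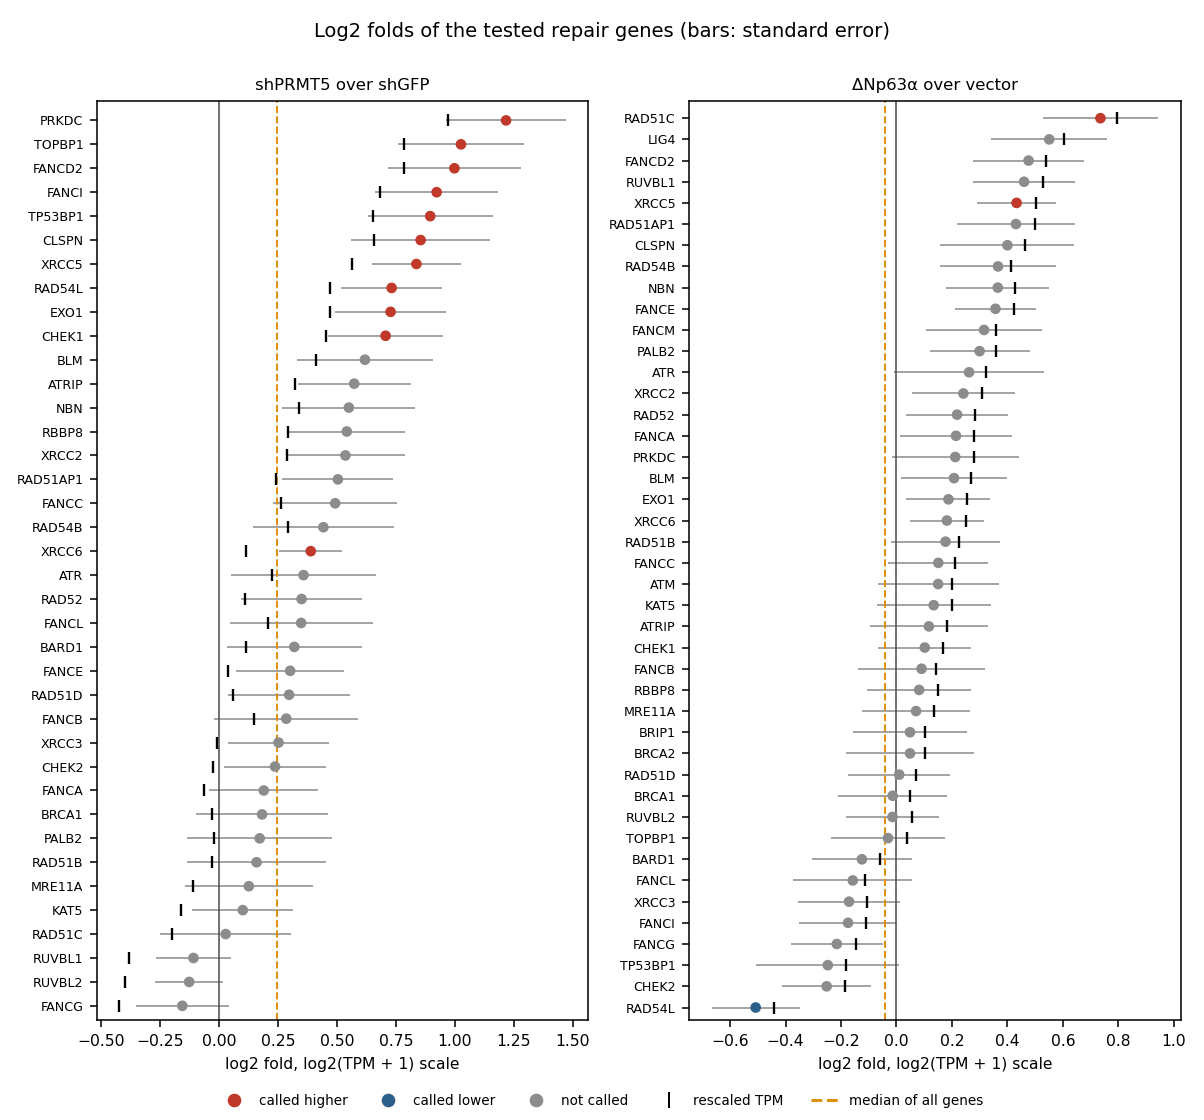
Log2 folds of the tested repair genes with standard errors (bars), 38 for shPRMT5 over shGFP (left) and 43 for ΔNp63α over vector (right). Red and blue points passed the test, black ticks give the fold after rescaling, and the dashed line marks the median of all genes tested. On the left 11 points are red and the ticks sit to their left, and on the right 2 are red and 1 is blue.

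Other genes of the same pathways were counted in the same way. Of 79 tested genes from 6 related lists, 21 were higher and 2 lower under shPRMT5, with a median log2 fold of 0.37, beside the 15.1% higher, 3.48% lower and median of 0.25 of all genes. After rescaling 1 was higher and 6 lower, beside 3.80% higher and 7.01% lower over all genes. The median was then 0.09, beside 0.01 over all genes and 0.22 over the 38 members. The TIP60 complex had 5 of 12 higher, with the scaffold TRRAP at a log2 fold of 0.90, the subunit ING3 at 0.88 and the remodeller EP400 at 0.81. The other checkpoint genes had 5 of 14 higher, with TTI1 at 0.69, WEE1, which restrains mitotic entry, at 0.67, and RAD1, part of the checkpoint clamp, at 0.60. In the chromatin response to breaks 3 of 10 were higher: PAXIP1 (0.93), the ubiquitin ligase RNF8 (0.71) and the histone H2AFX (0.43). The other Fanconi and crosslink genes had 3 of 12 higher, led by USP1, which removes ubiquitin from FANCD2, at 0.95 (also called after rescaling), APITD1 at 0.83 and the ligase RFWD3 at 0.57. Of the other recombination factors 4 of 22 were higher and 1 lower, with RMI1 at 0.82, ZSWIM7 at -0.72 and TOP3A at 0.61. The other end joining and single-strand break genes had 1 of 9 higher, PARP1 at 0.58, and 1 lower, C9orf142 at -0.48. Many repair genes are transcribed with the cell cycle. Among 12 reference genes of S phase and mitosis, 9 were higher and 0 lower under shPRMT5, with a median log2 fold of 0.61. All 12 log2 folds were positive, as were 9087 of the 12635 over all genes tested. After rescaling 2 of the 12 were called higher, RRM2 and MKI67, beside 3.80% of all genes tested. MKI67 stood at 10.4 and 14.1 TPM under shPRMT5, against 5.17 and 4.98 TPM under shGFP. The part of this shift in the repair genes' values was not tested.

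Under ΔNp63α overexpression few of the same repair genes passed the test. Of 43 tested, 2 were called higher, RAD51C and XRCC5, and 1 lower, RAD54L, beside 7.34% higher and 14.1% lower over the 13382 genes tested. The share called in either direction was thus no larger than in the whole table. The median log2 fold of the 43 was 0.15, beside -0.04 over all genes. After rescaling, 5 were higher and 1 lower, beside 10.5% higher and 13.0% lower, with LIG4, FANCD2 and FANCE added to the higher genes and a median of 0.21, beside 0.02. The ΔNp63α libraries lay wholly above the vector libraries for 9 of the 43 and wholly below for 2, beside 14.2% and 23.7% over all genes tested. Vector replicate 2 held the lowest value of its group for 34 of the 43 genes and the highest for 0. Over all genes tested it was lowest for 48.7% and highest for 20.6%. ΔNp63α replicate 1 was the lowest of its group for 30 of the 43, and for 50.6% of all genes. Of the 3 called genes, each lost its call when any of several single libraries was left out: RAD51C and XRCC5 without ΔNp63α replicate 2 or 3 or vector replicate 2 or 3, and RAD54L without any library other than vector replicate 2. Their log2 folds kept their signs in these fits.

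**Figure D3:**
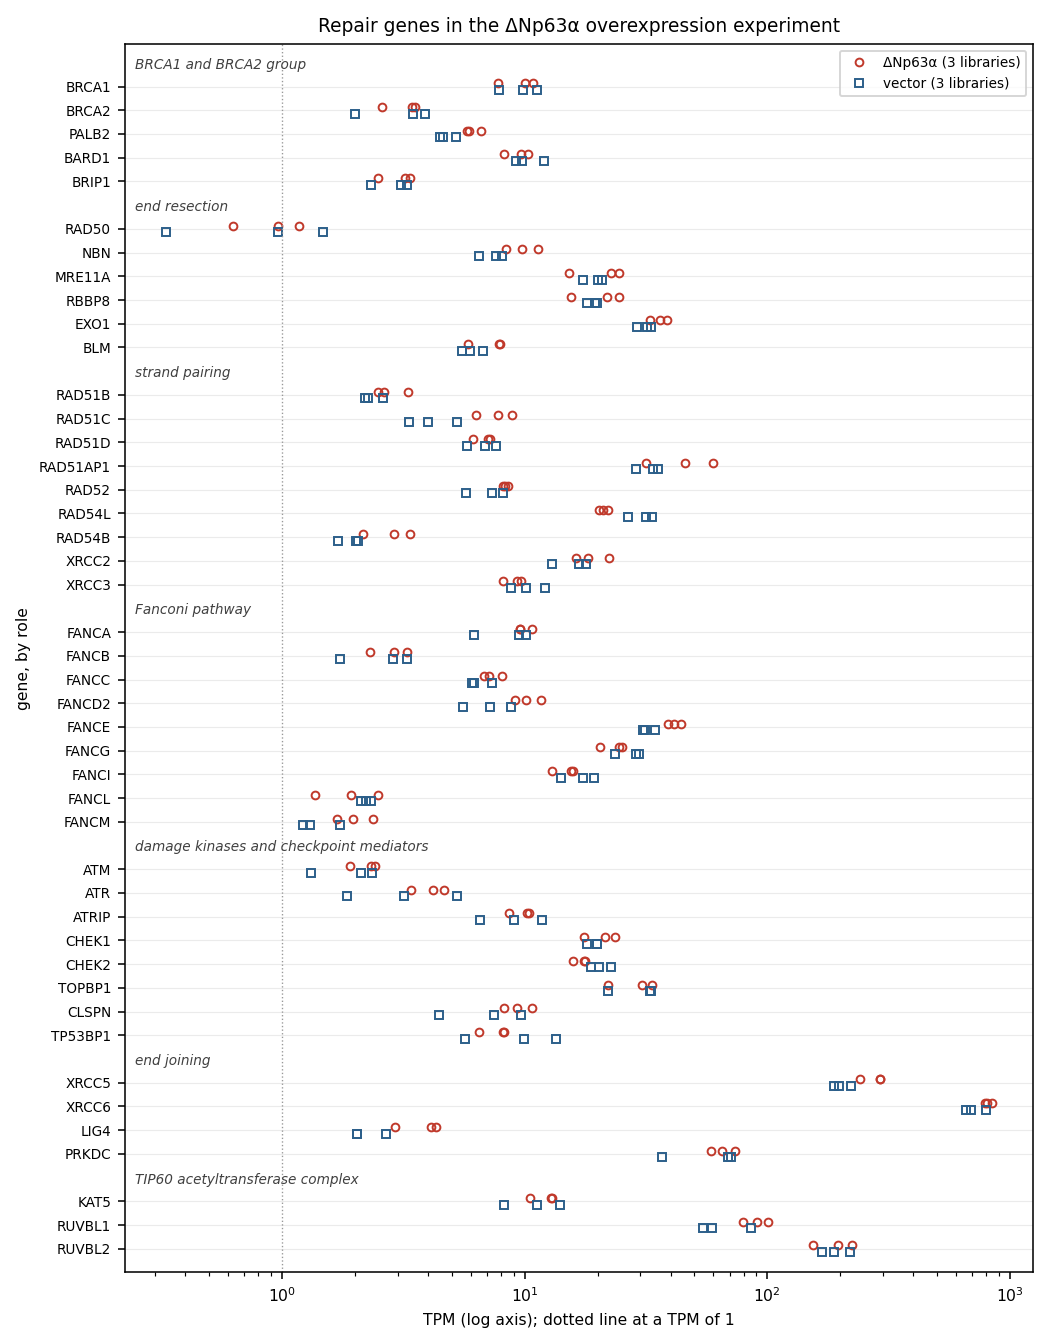
TPM (log axis) of the 44 repair genes in the 3 ΔNp63α libraries (red circles) and the 3 vector libraries (blue squares), grouped by role, with a dotted line at a TPM of 1. The groups overlap for 32 of the 43 tested genes.

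RAD51C (ENSG00000108384), a strand pairing gene that acts on resected DNA, stood at 6.29, 8.90 and 7.75 TPM in the ΔNp63α libraries, against 5.27, 4.01 and 3.35 TPM in the vector libraries (log2 fold 0.74, SE 0.21, limma adjusted p = 0.0264). Each ΔNp63α library exceeded each vector library, and the ratio of means was 1.82. XRCC5 stood at 240.1, 291 and 291 TPM under ΔNp63α, against 221, 189 and 197 TPM with vector, a smaller change (log2 fold 0.43, SE 0.14) that barely passed (limma adjusted p = 0.0494). RAD54L stood at 22.1, 20.3 and 21.1 TPM under ΔNp63α, against 31.5, 26.7 and 33.6 TPM with vector (log2 fold -0.51, SE 0.16, limma adjusted p = 0.0396). Its ΔNp63α libraries lay close together and below all 3 vector libraries. With 1 library left out its log2 fold ranged from -0.60 to -0.44.

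The 4 genes nearest to a call that missed it were LIG4, RUVBL1, FANCE and FANCD2. LIG4 stood at 2.91, 4.30 and 4.13 TPM under ΔNp63α, against 2.67, 2.04 and 2.04 TPM with vector (log2 fold 0.55, SE 0.21, limma adjusted p = 0.0814). RUVBL1 stood at 101, 79.7 and 90.6 TPM under ΔNp63α, against 85.6, 59.1 and 54.6 TPM with vector (log2 fold 0.46, SE 0.18, limma adjusted p = 0.0970). FANCE, a bridge between the Fanconi core and FANCD2, stood at 39.1, 44.0 and 41.3 TPM under ΔNp63α, against 31.4, 30.8 and 34.4 TPM with vector (log2 fold 0.36, SE 0.15, limma adjusted p = 0.106). The groups overlapped for RUVBL1, and not for LIG4 or FANCE. FANCD2 stood at 9.10, 11.7 and 10.1 TPM under ΔNp63α, against 8.79, 5.59 and 7.19 TPM with vector (log2 fold 0.48, SE 0.20, limma adjusted p = 0.110), again without overlap.

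By role, genes not called lay between -0.22 and 0.48 in the Fanconi group, between -0.17 and 0.43 among strand pairing genes, between 0.18 and 0.55 in end joining and between -0.01 and 0.46 in the TIP60 group. The 5 genes of the BRCA1 and BRCA2 group lay between -0.12 (BARD1) and 0.30 (PALB2), and BRCA1 and BRCA2 had log2 folds of -0.01 (SE 0.20) and 0.05 (SE 0.23). The 5 tested resection genes lay between 0.07 (MRE11A) and 0.37 (NBN), and the 8 kinases and checkpoint mediators between -0.25 (CHEK2) and 0.40 (CLSPN). In these 3 groups no gene was called by limma and 0 of 18 had an unadjusted p under 0.05, beside 4690 of the 13382 genes tested. PRKDC, the gene with the largest change under shPRMT5, stood at 58.8, 65.1 and 73.7 TPM under ΔNp63α, against 70.7, 36.8 and 69.1 TPM with vector (log2 fold 0.21, SE 0.23), with vector replicate 2 apart from the other 5 libraries. Of 88 tested genes of the 6 related lists, 4 were higher (4.55%) and 3 lower under ΔNp63α, beside 7.34% higher and 14.1% lower over all genes tested. The higher ones were ACTL6A and ING3 of the TIP60 complex (log2 folds 0.70 and 0.68), the phosphatase CDC25A (0.60) and the single-strand binding subunit RPA2 (0.48), and the lower ones the polymerase POLM (-1.47), the nuclease subunit ERCC1 (-0.65) and WEE1 (-0.60). POLM, which fills gaps in end joining, stood at 10.9, 9.74 and 12.4 TPM under ΔNp63α, against 29.8, 32.9 and 34.1 TPM with vector. Of the 12 reference genes of S phase and mitosis 1 was higher (8.33%), CCNB1, and 0 lower, beside the same 7.34% and 14.1% of all genes.

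Set side by side, 38 members were tested in both experiments, which share no library. XRCC5 was called higher in both. RAD54L was called in both in opposite directions, with a log2 fold of 0.73 for shPRMT5 over shGFP and of -0.51 for ΔNp63α over vector. The other 9 genes that rose under shPRMT5 were not called under ΔNp63α, where their log2 folds lay on both sides of 0, from -0.25 for TP53BP1 and -0.17 for FANCI to 0.48 for FANCD2. RAD51C, called under ΔNp63α, had a log2 fold of 0.03 under shPRMT5. The difference between the experiments was not tested, since the tables were normalized separately and the contrasts are not the same.

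**Figure D4:**
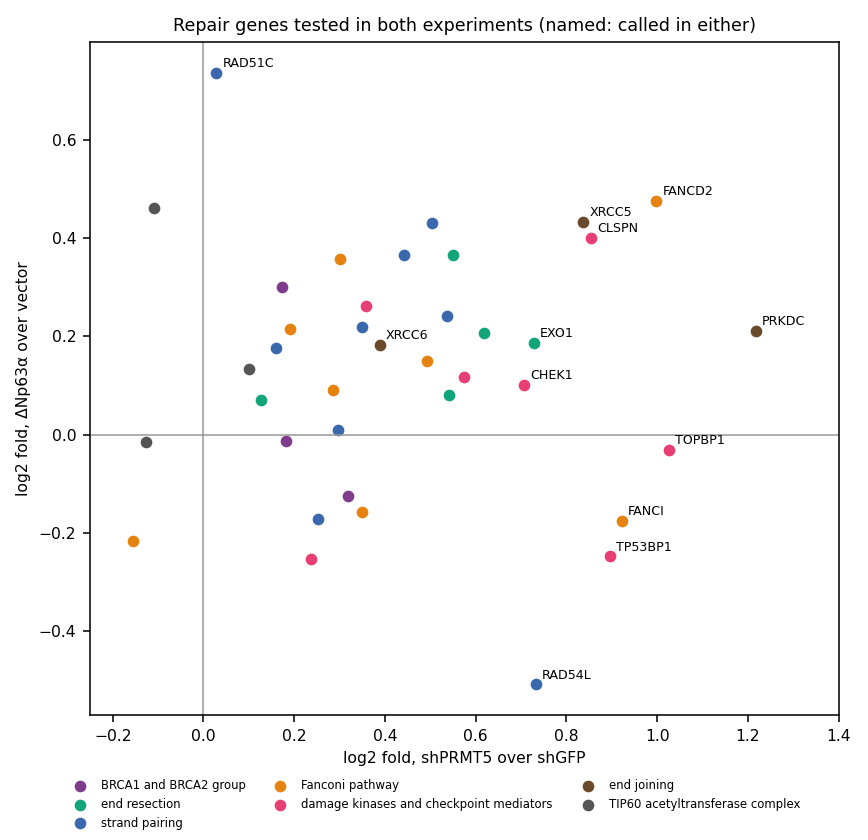
Log2 fold for shPRMT5 over shGFP (horizontal) against that for ΔNp63α over vector (vertical) for the 38 repair genes tested in both experiments, coloured by role, with names for genes called in either. RAD54L is the lowest point at 0.73 and -0.51, and XRCC5 lies in the upper right at 0.84 and 0.43.

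Ratios of partner genes within a library do not depend on how libraries are scaled, and 3 pairs were compared in each experiment. FANCI over FANCD2 was 1.42, 1.34 and 1.57 in the ΔNp63α libraries, against 1.98, 2.52 and 2.68 in the vector libraries. The ratio RUVBL2 over RUVBL1 was 2.21, 1.94 and 2.17 under ΔNp63α, against 2.57, 3.19 and 3.08 with vector. Neither pair of groups overlapped, and the two-sided exact permutation p was 0.1 for each, the smallest that 3 against 3 can give, or 0.15 after Benjamini-Hochberg adjustment over the 3 pairs. XRCC6 over XRCC5 was 3.51, 2.70 and 2.75 under ΔNp63α, against 3.61, 3.64 and 3.36 with vector, with overlap (two-sided exact permutation p = 0.2, also after adjustment). Under shPRMT5 the ratio of XRCC6 over XRCC5 was 5.06 and 5.03, against 8.42 and 5.67 under shGFP, where shGFP replicate 1 stood apart. The other ratios were 3.33 and 3.14 under shPRMT5, against 3.48 and 3.08 under shGFP, for RUVBL2 over RUVBL1, and 1.98 and 1.68, against 1.98 and 2.26, for FANCI over FANCD2. With 2 libraries against 2 the exact test cannot go below 0.333, so no difference could be shown there.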

How the data were processed

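The RNA-seq values are TPM that the authors deposited, 1 table for each experiment. Names of tools (Bowtie, featureCounts, FastQC, DESeq2 1.24.0) and of builds (hg19, GRCh37) come without a role, per the submitters' processing notes, and neither the tool behind the TPM nor the use of strand in counting is given in the sources used here. Every TPM column totals 1e+06, no listed gene has a 0 in any library, and blank rows (2 and 1) were dropped.

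Tables were analysed separately. After a filter at a mean TPM of 1, log2(TPM + 1) went into limma 3.58.1 (R 4.3.3; moderated with a trend on mean level; two-sided), with Benjamini-Hochberg adjustment over all genes of that table and a threshold of 0.05. The step was tested on simulated data. Members and lists were chosen with earlier results of these data known. A gene of 1 related list is not reported here. By rule, values of every library are given for PRMT5, TP63, called members and up to 4 uncalled members of smallest p per experiment, with up to 3 called genes of each related list by fold. Other members appear by range, and those given in full beyond the rule were added to show a role group. Alternatives changed the pseudocount (0.1), the filter (none, or a mean TPM of 5), the scaling (median of ratios, quantiles), the trend, the replicate block, the tables fitted (both at once) and the libraries (each left out). Partner ratios were tested by exact permutation (SciPy 1.17.1). Other steps used Python 3.11.15, pandas 2.3.3 and Matplotlib 3.10.9.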

Additional observations from a re-analysis of the deposited data

How the results depend on the processing

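Counts of members called higher under shPRMT5 (11) moved to 2 with no filter on low values, 1 after median-of-ratios rescaling, 2 after quantile normalization and 4 without the intensity trend, and ran from 0 to 11 with each library left out. Members called lower stayed at 0 by limma in each of these fits. Over all genes, the 1904 higher genes moved to 756, 480, 400 and 950 in the same 4 fits and ran from 170 to 2385 with a library left out, and the 440 lower genes moved to 237 with no filter, 886 after rescaling, 203 without the trend and 218 in 1 fit over both tables, and ran from 154 to 716. Members called higher under ΔNp63α (2) were 1 with a pseudocount of 0.1, with no filter, without the trend and in 1 fit over both tables, 5 after rescaling and 6 after quantile normalization, with 0 to 3 when a library was left out. The 1 lower member was 0 without the trend and ran from 0 to 1. Over all genes, 982 higher became 1526 after quantile normalization and ran from 417 to 1431, and 1893 lower ran from 1150 to 1947. No called member changed sign in any of these fits.

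Replicate numbers are shared by the groups, but the titles do not say that a number marks a shared batch, so the main fits did not pair the samples. In the overexpression, deviations of same-numbered libraries correlated at 0.32, 0.23 and 0.09, and those of differently numbered libraries at -0.33 to 0.14. In the knockdown the values were 0.09 and -0.09, where 2 libraries per group force all of them to 1 size. Whether the numbers mark pairs was not tested. With a replicate block, 12 members were higher and 0 lower under shPRMT5 (ATRIP was added) and 3 higher and 1 lower under ΔNp63α (RUVBL1 was added). Over all genes the block gave 2856 higher and 630 lower, and 1473 higher and 2416 lower. Depth is unknown, so genes under a TPM of 1 are described by their values only.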

Other observations

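Across the tables, which were normalized separately, 31 of the 44 repair genes stood at a lower percentile of all listed genes in the shGFP libraries than in the vector libraries. The same share over all genes was not computed, so this count has no background. The median percentile of the 44 was nonetheless about equal, 51.5 in shGFP cells and 50.5 in vector cells. The genes named here were chosen after their values were seen. PRKDC stood at percentile 53.5 in shGFP cells and 85.7 in vector cells, TOPBP1 at 52.7 and 74.4, BRCA2 at 14.4 and 32.0, and ATM at 10.2 and 25.1. XRCC3 stood the other way, at 71.4 and 52.5, as did KAT5, at 71.5 and 53.9. Both control groups are UM1 cells, and which difference between the experiments goes with these ranks was not tested.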
